A study of Homo sapiens with 12 samples.

Results

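The cell division cycle was followed through 50 genes chosen by name: 25 that act in DNA replication and 25 that act in mitosis, taken by symbol from the 48162 genes of the deposited count table. All 50 were found there and all 50 passed the filter on low counts, which left 16733 genes for testing. Caco-2 is an established human colorectal adenocarcinoma line that forms enterocyte-like epithelium, and here passage 26 cells were grown in Matrigel in medium with 20% fetal bovine serum for 5 days until they formed spheroids. Exposure lasted 4 h, with carrier fluid alone in the control group, and with methotrexate, lactoferrin or both agents in the other groups. RNA of 3 samples in each of the 4 groups was sequenced. Methotrexate blocks dihydrofolate reductase and so limits the supply of nucleotides, and lactoferrin is an iron-binding milk glycoprotein. Nothing in the labels says that samples of 1 group were separate cultures, and p-values therefore measure the spread among these 12 samples only, part of which may be technical. The labels used here name no dose.

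Replication is licensed when the origin recognition complex, CDC6 and CDT1 load the ring of MCM2 to MCM7 onto DNA, and it fires when CDC45 and the GINS subunits turn that ring into an active helicase. PCNA, the sliding clamp, is opened by the RFC loader and tethers the polymerases, FEN1 trims Okazaki fragments, and RRM1 with RRM2 makes deoxynucleotides. Genes of this group are classical targets of E2F factors and peak around the start of S phase. Mitosis is driven by CDK1 with cyclins A2, B1 and B2, by the Polo and Aurora kinases, by the spindle motors and by the anaphase-promoting complex with CDC20 and UBE2C. Many of these genes peak in G2 and M through a cell-cycle homology region (CHR) bound by the DREAM and MuvB complexes, usually beside CCAAT boxes bound by NF-Y.

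The promoters of the members carry this division in their letters, and 6 of them are shown for that reason: 3 of replication genes, with E2F letters, and 3 of mitotic genes, with CHR letters. Sequences are from RefSeq on GRCh38.p14, 5′ to 3′ on the gene's strand, and each holds the 200 bases before the annotated start. Capitals mark E2F letters (TTTCCCGC, TTTGGCGC or TTTCGCGC), CHR letters (TTTGAA or TTCGAA) and CCAAT, each searched on both strands, so that CCAAT on the other strand reads ATTGG. Overlapping matches run together in MCM6, where the E2F letters of both strands share bases, and in MKI67, where the CHR letters share bases with ATTGG.
MCM6 (chr2:135876444-135876643, minus strand): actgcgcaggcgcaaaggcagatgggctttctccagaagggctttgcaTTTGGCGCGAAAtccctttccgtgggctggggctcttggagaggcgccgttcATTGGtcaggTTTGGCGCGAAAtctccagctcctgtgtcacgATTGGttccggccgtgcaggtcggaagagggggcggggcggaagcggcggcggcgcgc
PCNA (chr20:5126623-5126822, minus strand): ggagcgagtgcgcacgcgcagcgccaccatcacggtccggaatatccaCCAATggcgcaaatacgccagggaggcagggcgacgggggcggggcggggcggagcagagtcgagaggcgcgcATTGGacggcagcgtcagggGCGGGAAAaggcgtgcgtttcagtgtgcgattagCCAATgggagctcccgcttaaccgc
GINS2 (chr16:85688955-85689154, minus strand): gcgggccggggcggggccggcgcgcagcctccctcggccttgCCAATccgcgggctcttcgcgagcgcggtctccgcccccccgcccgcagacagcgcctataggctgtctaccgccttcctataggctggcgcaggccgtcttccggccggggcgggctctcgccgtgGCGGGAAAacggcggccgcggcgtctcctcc
CCNB2 (chr15:59104946-59105145, plus strand): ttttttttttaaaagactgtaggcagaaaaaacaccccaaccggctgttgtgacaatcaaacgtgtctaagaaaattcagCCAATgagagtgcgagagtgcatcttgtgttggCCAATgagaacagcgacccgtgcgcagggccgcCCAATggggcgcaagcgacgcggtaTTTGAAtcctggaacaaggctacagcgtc
PLK1 (chr16:23678689-23678888, plus strand): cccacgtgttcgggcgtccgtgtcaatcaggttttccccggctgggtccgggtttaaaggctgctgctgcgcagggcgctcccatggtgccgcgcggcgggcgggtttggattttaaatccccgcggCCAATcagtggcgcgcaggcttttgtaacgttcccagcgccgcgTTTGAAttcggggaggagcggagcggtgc
MKI67 (chr10:128126424-128126623, minus strand): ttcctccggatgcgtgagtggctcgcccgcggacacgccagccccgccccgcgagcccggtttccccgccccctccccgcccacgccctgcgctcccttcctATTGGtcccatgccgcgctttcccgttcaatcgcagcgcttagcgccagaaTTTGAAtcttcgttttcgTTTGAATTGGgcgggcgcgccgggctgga

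RefSeq windows from 250 bases before to 50 bases after the start were matched by symbol for 42 of the 50 members, 22 of the replication group and 20 of the mitotic group. E2F letters were found in 14 of the 22 replication windows (63.6%) and in 2 of the 20 mitotic windows, against 3.3% of all 27305 genes with a window. CHR letters showed the opposite pattern, with 2 of 22 replication members (9.1%) and 15 of 20 mitotic members, against 19.5% of all genes. CCAAT was found in 15 of 22 replication members (68.2%) and 18 of 20 mitotic members, against 39.7% of all genes. The median position was 31 bases before the start for E2F letters in the replication group and 29 bases before it for CHR letters in the mitotic group. Genes of the same pathways outside the 50 gave the same contrast, with E2F letters in 12 of 30 further replication genes (40.0%) and CHR letters in 27 of 34 further mitotic genes (79.4%). These are matches of letters and no measurement of binding.

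**Figure D1:**
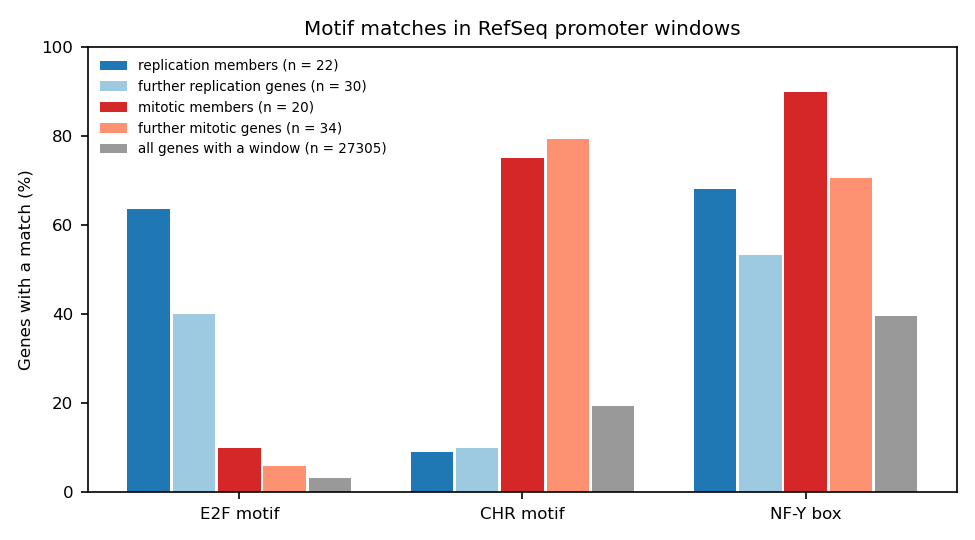
Percent of genes with E2F letters, CHR letters or the NF-Y box in any of their 300-base RefSeq windows. The 5 sets are given with their number of genes in the key. E2F letters are found in 14 of 22 replication and 2 of 20 mitotic members, and CHR letters in 2 of 22 and 15 of 20.

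In control spheroids all members were expressed. Per kilobase of gene length, the control level was highest for MCM7, a helicase subunit, at 175 ± 8 CPM per kb (CPM are counts scaled to the library total; SD, n = 3), followed by PCNA at 164 ± 4.34 and by UBE2C, the ubiquitin-conjugating enzyme of the anaphase-promoting complex, at 140 ± 8.26. The lowest levels per kilobase were those of CCNE2, a G1/S cyclin, at 0.746 ± 0.0516 and of CENPE, a kinetochore motor, at 1.98 ± 0.484. Of the 49 neighbouring pairs in that order, 32 differed by no more than the larger of their SDs, so only the broad order is resolved.

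The libraries labelled methotrexate stood apart from the other 9 before any member was considered. They held 47459811 to 60591667 counts, against 18714054 to 23859094 elsewhere, and 6.67% to 7.54% mitochondrial counts, against 2% to 3.34%. Summed levels of the 10 adipocyte markers were 16200 to 16900 CPM there and 63.3 to 74.4 CPM in the other groups. The 12 fibroblast markers summed to 10800 to 12100 CPM against 924 to 1090 CPM. None of these 22 markers was at 0 in the methotrexate group, while LEP and CIDEA had no count in the lactoferrin and combination groups, DCN had none in the lactoferrin group and DPT had none outside methotrexate. Endothelial markers summed to 9.7 to 10.6 CPM in methotrexate and 1.93 to 4.63 CPM elsewhere, and immune markers to 34.1 to 41.9 CPM and 29.4 to 32.7 CPM. Caco-2 is an epithelial line, and the source of this marker RNA was not tested, a limit on every value below that uses these libraries. Epithelial genes gave the yardstick: 57 junction and enterocyte genes with counts in every library, 53 of which fell, had a median log2 change of -1.06 between methotrexate and control, which is 48% of the control level. CPM are shares of a library, so in bulk RNA fewer epithelial cells, less RNA per cell and dilution by other RNA cannot be told apart.

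Against control, nearly every replication and mitotic gene fell in the methotrexate group, and by about as much as the epithelial yardstick. With TMM scaling, which sets libraries on the bulk of all genes, 24 of 25 replication members were lower in edgeR's quasi-likelihood test at an adjusted p under 0.05, with a median log2 change of -1.01. All 25 mitotic members were lower, with a median of -1.12 and a range of -1.35 to -0.85. Of all genes tested 29.1% were lower and 35.4% higher, and the median gene changed by 0.03. The members thus lay on the lower side of the table, beside the epithelial genes.

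Among the origin and helicase genes, GINS2, a GINS subunit (hg19 chromosome 16, 85709804 to 85723679), measured 72.4, 72.9 and 76.9 CPM in control libraries 1 to 3 and 35.6, 32.3 and 34.3 CPM in methotrexate libraries 1 to 3. Its log2 change was -1.12 (SE 0.09, adjusted p = 2.21e-08, edgeR). GINS1, its partner subunit, measured 97.5, 89.8 and 104 CPM in control and 48.3, 46.1 and 44.1 CPM in methotrexate, a log2 change of -1.07 (SE 0.09, adjusted p = 3.23e-08, edgeR). The groups were far apart for both genes, with every methotrexate library below every control library. The same held for 24 of 25 replication members, 25 of 25 mitotic members and 32.9% of all genes with TMM scaling. MCM10, which helps activate the helicase, stood at 48.2, 49.3 and 47.5 CPM in control and at 24.5, 21.2 and 24.0 CPM in methotrexate (log2 change -1.06, SE 0.10, edgeR adjusted p = 8.39e-08). The 6 subunits of the MCM2 to MCM7 ring changed by -1.09 to -0.87. The loading factors CDC6 and CDT1 changed by -0.90 and -1.03, CDC45 by -1.06, and all of these were called.

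PCNA (hg19 chromosome 20, 5095599 to 5107272) measured 218, 230 and 221 CPM in control and 126, 117 and 102 CPM in methotrexate, a log2 change of -0.96 (SE 0.09, edgeR adjusted p = 2.59e-07). RRM2, the small subunit of ribonucleotide reductase, measured 200, 196 and 210 CPM in control and 100, 90.2 and 78.4 CPM in methotrexate (log2 change -1.17, SE 0.10, edgeR adjusted p = 4.81e-08). In neither gene did the groups overlap. POLE2, a subunit of the leading-strand polymerase, changed by -1.14 (edgeR adjusted p = 1.14e-05). Smaller falls were those of RRM1 by 0.77, FEN1 by 0.70, POLA1, the catalytic subunit of the primase polymerase, by 0.59, and RFC4, a clamp loader subunit, by 0.31 on the log2 scale. RFC4 was the least secure of the called members, with an adjusted p of 0.0329 and control libraries of 17.9, 18.4 and 13.9 CPM against 12.9, 13.8 and 13.7 CPM. CCNE2 was the only member that did not pass (log2 change -0.42, edgeR adjusted p = 0.205). Its methotrexate libraries measured 1.28, 1.40 and 2.86 CPM against 2.54, 2.29 and 2.62 CPM in control, so library 3 alone was as high as the controls.

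Among the mitotic genes, TPX2, which activates Aurora A at the spindle (hg19 chromosome 20, 30327074 to 30389608), measured 408, 370 and 387 CPM in control and 184, 171 and 170 CPM in methotrexate. Its log2 change of -1.15 (SE 0.08) had the lowest adjusted p of all members in edgeR, 3.9e-09. The cyclins CCNB1 and CCNB2, activators of CDK1, changed by -1.03 (SE 0.09) and -1.19 (SE 0.10). CCNB1 stood at 215, 193 and 208 CPM in control and at 109, 99.0 and 93.2 CPM in methotrexate, and CCNB2 at 90.2, 77.7 and 82.3 CPM against 39.9, 36.8 and 33.1 CPM. For these 3 genes the methotrexate values were tight and lay far below the controls. BUB1B, a spindle checkpoint kinase, measured 54.0, 48.8 and 52.1 CPM in control and 25.4, 22.2 and 19.7 CPM in methotrexate (log2 change -1.21, SE 0.11, edgeR adjusted p = 5.55e-08). MKI67, the proliferation marker that coats mitotic chromosomes, measured 284, 308 and 240 CPM in control and 146, 147 and 86.8 CPM in methotrexate (log2 change -1.13, SE 0.19, edgeR adjusted p = 6.46e-05). Methotrexate library 3 was well below libraries 1 and 2, and the groups still did not overlap. The largest fall of any member was that of KIF20A, a kinesin of cytokinesis, at -1.35 (SE 0.14).

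**Figure D2:**
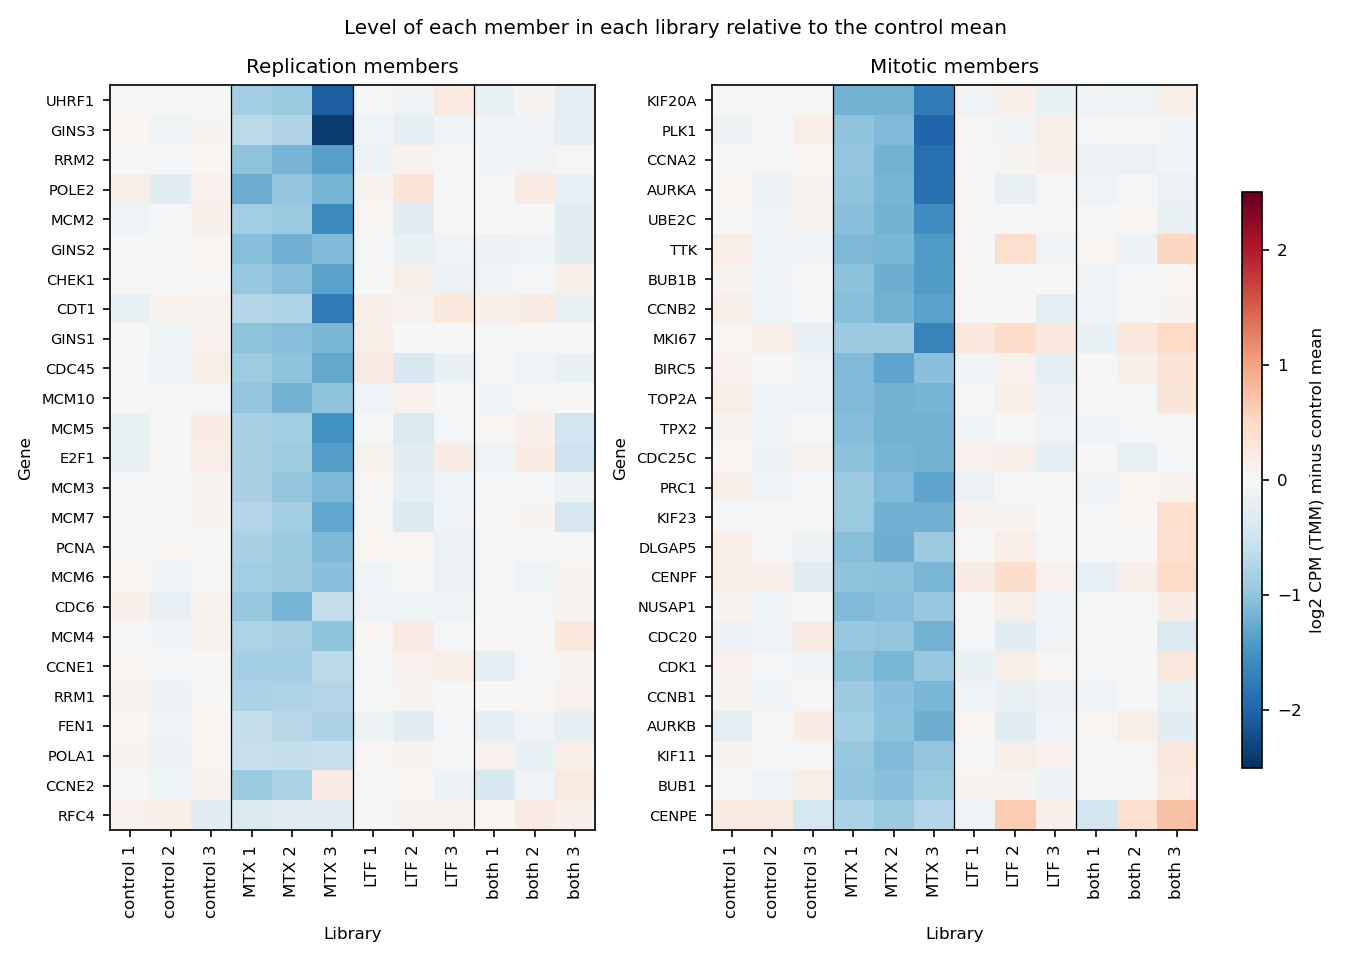
Level of each of the 50 members in each of the 12 libraries, as log2 CPM with TMM scaling minus the control mean, ordered within each group by the mean of the methotrexate (MTX) libraries. The 3 methotrexate columns are blue for nearly all members, the lactoferrin (LTF) and combination (both) columns stay near 0, and methotrexate library 3 holds the darkest cells.

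Set against the epithelial genes, few members passed the test. Libraries were rescaled on the median ratio of the 57 epithelial genes, which moved the median log2 change of all genes from 0.03 to 1.05. On that scale 3 of 25 replication members were higher in methotrexate and 0 were lower, with a median log2 difference of 0.00. Of the mitotic members 0 were higher and 2 lower, with a median of -0.10. Across all genes 78.9% were higher and 0.185% lower on this scale. The share of replication members that were higher, 3 of 25, is thus below that of all genes, while 2 of 25 lower mitotic members are above the share of all genes that were lower. Of the 57 epithelial genes that set the scale, 4 were higher and 0 lower. At an unadjusted p under 0.05 in edgeR, 4 replication members were higher and 3 mitotic members lower, none of them in the other direction.

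The 3 replication genes above the epithelial yardstick were RFC4, POLA1 and FEN1. On the epithelial scale RFC4 (hg19 chromosome 3, 186507669 to 186524847) measured 18.2, 18.1 and 14.0 CPM in control and 24.7, 27.6 and 30.0 CPM in methotrexate, a log2 difference of 0.71 (SE 0.14, edgeR adjusted p = 0.000202). POLA1 measured 26.3, 22.2 and 25.8 CPM in control and 31.8, 32.4 and 36.1 CPM in methotrexate, a difference of 0.43 (SE 0.14, edgeR adjusted p = 0.00899). FEN1 measured 145, 128 and 145 CPM in control and 175, 171 and 176 CPM in methotrexate, a difference of 0.32 (SE 0.10, edgeR adjusted p = 0.00623). In each of the 3 genes every methotrexate library was above every control library, as was so for 7 of 25 replication members and 80.6% of all genes on this scale. All 3 remained called when any 1 control or methotrexate library was left out, when either epithelial list was used alone and with reference genes of at most 50% GC. RRM1 joined them without control library 1, without methotrexate library 1, and with each of these 3 other references. CCNE2 joined without methotrexate library 1 or 2, and CCNE1 joined with reference genes of at most 50% GC, for a highest count of 5.

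Each of those 3 genes overlaps another gene of the table, as do many members that were not called. FEN1 overlaps FADS2, a fatty acid desaturase on the same strand, which rose from 88.1 ± 2.52 to 934 ± 45.3 CPM in methotrexate (SD, n = 3, log2 change 3.41, edgeR adjusted p = 2.85e-13) and has 4.02 times the counts of FEN1. RFC4 overlaps EIF4A2, a translation factor on the opposite strand with 14.6 times its counts and an epithelial-scale difference of 1.22. POLA1 overlaps the pseudogene EEF1B2P3 on the opposite strand, which holds 17.1% of its counts and differed by 0.12 on that scale. No source used here states whether counting used strand, so reads from the interval that RFC4 and EIF4A2 share cannot be assigned to either gene. FEN1 and FADS2 lie on the same strand, so strand could not assign reads from their shared interval under any setting. Reads outside the shared intervals are not affected, and the lengths of these intervals were not measured. In all, 24 of the 50 members overlap another gene of the table, 20 of them on the opposite strand, and 11 overlap a gene with more than 10% of their own counts. Among members not called on the epithelial scale, CCNE2 overlaps INTS8 with 11.8 times its counts (partner 0.66, CCNE2 0.63). CHEK1 overlaps STT3A with 6.61 times its counts (partner 0.03, CHEK1 -0.09). GINS2 overlaps GSE1 with 3.56 times its counts (partner 0.95, GINS2 -0.10). CDC25C overlaps FAM53C with 3.21 times its counts (partner 1.03, CDC25C -0.10). The part of overlapping genes in these differences was not tested.

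The 2 mitotic genes below the yardstick were KIF20A and UBE2C. KIF20A measured 97.4, 88.7 and 96.3 CPM on the epithelial scale in control and 79.6, 82.2 and 61.7 CPM in methotrexate, a log2 difference of -0.34 (SE 0.14, edgeR adjusted p = 0.0402). UBE2C measured 204, 187 and 216 CPM in control and 187, 178 and 150 CPM in methotrexate, a difference of -0.24 (SE 0.10, edgeR adjusted p = 0.0434). In both genes, and in TTK, all methotrexate libraries were below all controls, which held for 0.675% of all genes, although the nearest libraries of UBE2C were equal after rounding. These calls were fragile. The count of lower mitotic members was 0 without methotrexate library 3, without control library 1 or without control library 3, and it was 5 without methotrexate library 1. It was 1 with either epithelial list alone and 0 with reference genes of at most 50% GC, a reference added after seeing the data. KIF20A overlaps CDC23 on the opposite strand, which has 94.8% of its counts.

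The mean of the mitotic members minus that of the replication members, which needs no scaling, was 0.05, 0.01 and -0.07 log2 units in control libraries 1 to 3 and -0.17, -0.22 and -0.16 in the methotrexate libraries. All 3 methotrexate libraries were thus below all 3 controls in this difference. It was -0.01, 0.15 and -0.02 in the lactoferrin libraries and -0.01, 0.02 and 0.24 in the combination. No test is given for it, because the members were chosen with earlier results of these data known. Within the spread of the epithelial genes with TMM scaling, 8 replication members and 1 mitotic member lay above the upper quartile of the epithelial changes (-0.93), and 3 replication and 11 mitotic members lay below the lower quartile (-1.14). Median transcript GC content was 45.7% in the replication group, 43.2% in the mitotic group and 55.6% in the epithelial reference, and its part in these differences was not tested.

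**Figure D3:**
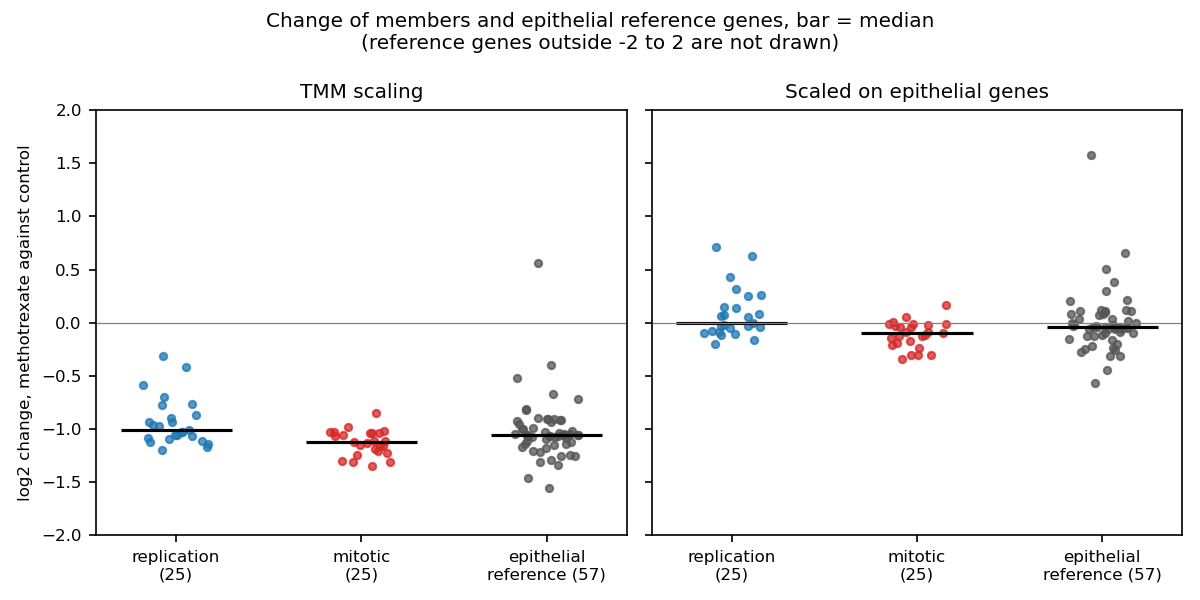
Log2 change between methotrexate and control for the 25 replication members, the 25 mitotic members and the 57 epithelial reference genes, with TMM scaling on the left and epithelial scaling on the right; each point is a gene and each bar a median. With TMM scaling all 3 sets centre near -1 (medians -1.01, -1.12 and -1.06), and with epithelial scaling they centre near 0; reference genes outside the drawn range of -2 to 2 are not shown.

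**Figure D4:**
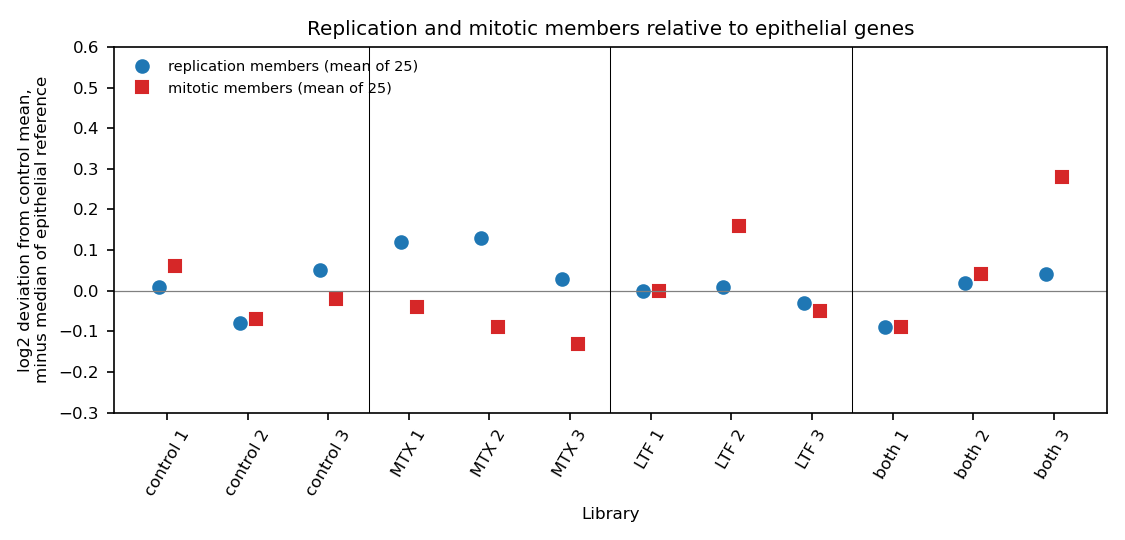
Mean log2 deviation from the control mean of each group of 25 members in each library, minus the median deviation of the epithelial reference genes. In the 3 methotrexate libraries the replication mean is at 0.03 to 0.13 and the mitotic mean at -0.13 to -0.04, while combination library 3 has the highest mitotic mean, 0.28.

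Methotrexate library 3 differed from libraries 1 and 2 in the members and in the epithelial genes. Around the control mean, the 50 members had an SD of 0.45 log2 units in methotrexate library 3, against 0.16 and 0.19 in libraries 1 and 2. GINS3, a helicase subunit, measured 15.9, 14.9 and 4.74 CPM in methotrexate libraries 1 to 3, so that library 3 lay 1.68 log2 units below the mean of the other 2. UHRF1, which maintains DNA methylation behind the fork, measured 75.9, 72.4 and 33.1 CPM, and the mitotic kinase PLK1 measured 80.9, 75.2 and 41.0 CPM. Differences from libraries 1 and 2 were -1.16 for UHRF1, -1.01 for CDT1, -0.93 for PLK1, -0.80 for CCNA2, -0.79 for AURKA and -0.76 for MKI67. In the other direction, CDC6 was higher by 0.47 and CCNE2 by 1.06. Low values were thus found among replication and mitotic members alike, while TPX2, TOP2A, POLA1 and GINS2 differed from libraries 1 and 2 by at most 0.06. Set against the other libraries of its group, 13 of 50 members lay over 0.5 log2 units apart in this library, and so did 9.09% of the 9359 genes over 10 CPM. In methotrexate libraries 1 and 2 the same held for 7 and 2 members and for 2.44% and 1.67% of those genes. Combination library 3 had fewer such members, 5, but a larger share of those genes, 11.6%. The SD of these deviations in library 3 was 0.44 over the members and 0.60 over the epithelial reference genes. Across 49 members with a GC value, the deviation of this library from libraries 1 and 2 had a Pearson r of -0.47 with GC content, given as a description over genes that share 1 library. Without methotrexate library 3 the TMM counts of lower members were 25 replication and 25 mitotic, so CCNE2 joined the others.

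**Figure D5:**
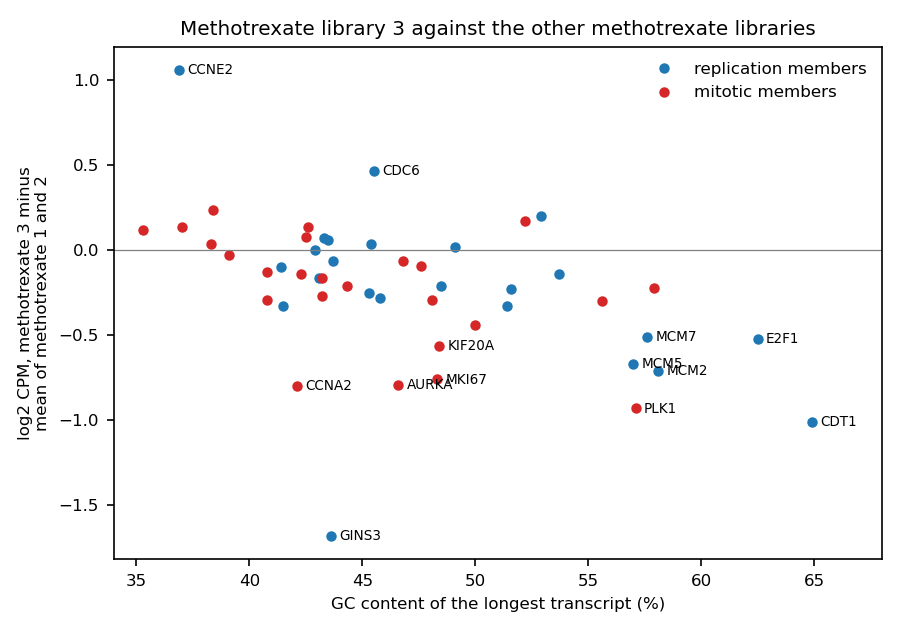
Log2 CPM of each member in methotrexate library 3 minus the mean of methotrexate libraries 1 and 2, against the GC content of its longest transcript, for the 49 members with a GC value (UHRF1 has none). GINS3 is lowest at -1.68 and CCNE2 highest at 1.06, and the members of highest GC content lie below 0.

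Other genes of the same pathways were also mostly lower with TMM scaling. Of 38 further replication genes, 35 fell with TMM scaling in edgeR, with a median of -0.86. On the epithelial scale 14 of the 38 were higher and 0 lower, with a median of 0.16, where 78.9% of all genes were higher, so that the share is below the background. TIMELESS, a fork protection factor, changed by -1.05 with TMM scaling (from 105 ± 4.77 to 50.8 ± 6.99 CPM), ORC1, an origin recognition subunit, by -0.98, CHAF1B, a histone chaperone of the fork, by -0.97 and RFC3, a clamp loader subunit, by -0.85. The 14 genes above the yardstick included the 3 subunits of the single-strand binding complex, chosen here after their values were seen: RPA1 at 0.59, RPA2 at 0.67 and RPA3 at 0.53. Of 40 further mitotic genes all 40 fell with TMM scaling, with a median of -1.08, and on the epithelial scale 1 was higher and 2 lower, with a median of -0.06. The mitotic kinesin KIF4A changed by -1.16, and the condensin subunits NCAPD2, NCAPG and NCAPH by -1.03, -1.21 and -1.29.

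Genes that restrain the cycle went both ways with TMM scaling only. Of 15 brakes, 9 were higher and 6 lower in methotrexate on that scale, against 35.4% and 29.1% of all genes. On the epithelial scale 12 of 15 were higher, a share near the 78.9% of all genes, and 0 were lower, against 0.185%. CDKN1A, which encodes the inhibitor p21, rose from 17.6 ± 2.12 CPM in control to 1030 ± 45.5 CPM in methotrexate (SD, n = 3, log2 change 5.88, edgeR adjusted p = 1.48e-15), and stood at 17.2 ± 0.63 CPM in lactoferrin and 14.6 ± 1.46 CPM in the combination. The INK4 inhibitor CDKN2C rose from 5.00 ± 1.7 to 130 ± 4.97 CPM, CDKN2B from 6.88 ± 0.367 to 71.3 ± 6.04 CPM and CDKN1C from 7.83 ± 0.938 to 35.7 ± 0.926 CPM. The 6 brakes that were lower with TMM scaling are named here after their values were seen. They were RBL1 at -1.02, the CDK1-inhibiting kinases WEE1 at -0.92 and PKMYT1 at -0.88, CDKN1B at -0.54, E2F4 at -0.53 and LIN54 at -0.34. The D-type cyclins CCND3 and CCND1 rose by 1.87 and 0.47, and their kinases CDK4 and CDK6 fell by 0.78 and 0.75 on the log2 scale with TMM scaling, whereas CDK4 was higher with epithelial scaling (0.24, edgeR adjusted p = 0.033) and CDK6 stood at 0.27 without passing the test. These rises occur in the same 3 libraries as the adipocyte and fibroblast markers given above, and the part of those markers' cells in them was not tested.

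With lactoferrin alone no member passed the test. In edgeR 0 of 25 replication and 0 of 25 mitotic members were called, 0 of 50 had an unadjusted p under 0.05, and 0% of all genes tested were called. DESeq2 and limma-voom also called 0. Median log2 differences were -0.01 for the replication and 0.00 for the mitotic members. PCNA measured 230, 231 and 201 CPM in the lactoferrin libraries against 218, 230 and 221 CPM in control, and the groups overlapped. MKI67 measured 330, 374 and 331 CPM against 284, 308 and 240 CPM, which is the largest difference of any member (0.32, SE 0.18, edgeR adjusted p = 1.0), and here every lactoferrin library was above every control. GINS2, at 71.6, 66.2 and 69.4 CPM, and CCNB1, at 193, 180 and 186 CPM, had no lactoferrin library above the lowest control. FEN1 measured 128, 113 and 134 CPM (log2 difference -0.15), MCM3 240, 202 and 220 CPM against 233, 230 and 248 CPM (-0.10), and MCM6 217, 235 and 210 CPM against 241, 223 and 235 CPM (-0.08). In these 3 replication genes the groups overlapped. CENPF, a kinetochore protein, measured 195, 234 and 185 CPM against 189, 187 and 143 CPM (0.24), and CDC20, the activator of the anaphase-promoting complex, 121, 103 and 119 CPM against 114, 119 and 145 CPM (-0.14), again with overlap. Over all genes, 5.18% had all lactoferrin libraries above all controls and 4.91% all below, so 1 and 2 of 50 are near the background. The 95% intervals of the members ran from -0.74 (GINS3) to 0.77 (CENPE), so a 2-fold change in either direction lay outside the interval of all 50, and smaller changes were not resolved.

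With both agents together no member passed the test either. In edgeR 0 of 50 were called against control and 0 of 50 against lactoferrin, with 0 of 50 at an unadjusted p under 0.05 in either, and DESeq2 and limma-voom called 0 as well. Of all genes 0.0299% were higher than control and 0.0179% higher than lactoferrin. Against control, the median log2 difference was -0.04 for the replication members and 0.03 for the mitotic members, and against lactoferrin it was 0.00 and 0.04. PCNA measured 224, 227 and 220 CPM, within the range of the control libraries. GINS2 measured 68.2, 68.9 and 61 CPM, below all controls, with a difference of -0.17 (SE 0.09, edgeR adjusted p = 1.0). CCNA2 also had all combination libraries below all controls, which held for 3.65% of all genes. KIF23, a kinesin of the central spindle, measured 40.7, 42.7 and 55.4 CPM against 40.8, 41.4 and 42.2 CPM, so that library 3 alone was high. MKI67 at 248, 336 and 390 CPM and CENPE at 12.2, 22.3 and 27.9 CPM were also highest in library 3. BIRC5, a subunit of the chromosomal passenger complex, measured 18.9, 20.6 and 24.0 CPM against 20.3, 19.1 and 17.7 CPM (0.16), and DLGAP5, a spindle protein, 47.3, 47.4 and 62.8 CPM against 53.0, 45.5 and 43.3 CPM (0.15), with library 3 highest in both. FEN1 measured 119, 131 and 119 CPM (-0.17), RFC4 17.2, 19.1 and 18.1 CPM (0.12), and MCM4 199, 197 and 239 CPM against 197, 190 and 212 CPM (0.08). The groups of these 5 genes overlapped. The 95% intervals against control ran from -0.74 to 0.82. In combination library 3 and lactoferrin library 2, the members' deviations had a Pearson r with GC content of -0.70 and -0.59 (49 members), and in control libraries 1 and 3 of -0.77 and 0.53.

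The members with the lowest p between the combination and lactoferrin also stayed short of the test. In the combination CCNE1, a G1/S cyclin, measured 28.5, 32.6 and 35.1 CPM against 33.0, 36.2 and 37.7 CPM in lactoferrin (log2 difference -0.15), and UHRF1 122, 145 and 119 CPM against 139, 130 and 163 CPM (-0.16). CDC6 measured 52.6, 51.2 and 56.2 CPM against 50, 49.4 and 49.4 CPM (0.11), and CCNA2 112, 111 and 118 CPM against 121, 128 and 134 CPM (-0.17). The libraries of the 2 groups did not overlap for CDC6 and CCNA2, which held in these directions for 3.67% and 3.22% of all genes. CCNB2 measured 79.6, 83.1 and 87.6 CPM against 80.3, 82.7 and 70.9 CPM (0.10). Differences were 0.22 for BIRC5, 0.12 for KIF23, -0.06 for GINS2, 0.02 for PCNA and -0.09 for MKI67, from the libraries given above and lactoferrin values of 18.1, 20.4 and 16 CPM for BIRC5 and 43.1, 43.5 and 41.0 CPM for KIF23. The 95% intervals ran from -0.67 to 0.60.

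Against methotrexate alone, nearly all members were higher in the combination with TMM scaling, in a comparison that shares the methotrexate libraries with the one above. In all, 24 of 25 replication and 25 of 25 mitotic members were higher in edgeR, with median log2 differences of 0.95 and 1.19, and 28.8% of all genes were higher and 34.4% lower. TOP2A, the topoisomerase that untangles mitotic chromosomes, measured 339, 323 and 411 CPM in the combination and 155, 146 and 147 CPM in methotrexate (log2 difference 1.26, SE 0.11, edgeR adjusted p = 5.64e-08), with no overlap of the groups. In the combination TPX2 measured 371, 375 and 394 CPM (log2 difference 1.12), BUB1B 48.8, 49.8 and 53.5 CPM (1.18) and CCNB2 the values given above (1.19). Of the replication genes, GINS1 measured 96.4, 96.9 and 97.4 CPM (1.07), RRM2 193, 189 and 207 CPM (1.13) and MCM10 46.1, 49.4 and 47.9 CPM (1.04), and GINS2 and PCNA differed by 0.95 and 0.96. MKI67 differed by 1.36. In all of these genes every combination library was above every methotrexate library given earlier. The same held for 24 of 25 replication members, 25 of 25 mitotic members and 30.2% of all genes.

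Scaled on epithelial genes, 3 replication members were lower, RFC4 at -0.54, FEN1 at -0.45 and POLA1 at -0.35, where 76.7% of all genes were lower, and the median was -0.02. There, 3 mitotic members were higher, TTK at 0.45, KIF20A at 0.39 and UBE2C at 0.24, where 0.353% of all genes were higher, and the median was 0.22. TTK, a checkpoint kinase, measured 28.6, 26.6 and 46.2 CPM on this scale in the combination and 25.1, 25.6 and 23.3 CPM in methotrexate, so that combination library 3 alone stood far above the other 5 of these libraries. The mitotic count was 9 without combination library 1, 6 without methotrexate library 1, 1 without combination library 3 (UBE2C) and 0 with reference genes of at most 50% GC. The replication count was 5 without combination library 3, and RFC4 and FEN1 were called with each library left out in turn.

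The interaction asks whether methotrexate changed the members differently with lactoferrin present than without it. With TMM scaling it was called higher for 23 of 25 replication and 25 of 25 mitotic members in edgeR, with medians of 1.00 and 1.18, and 20.6% of all genes were called in that direction and 26.1% in the other. TPX2 gave 1.18 (SE 0.11, adjusted p = 5.63e-07), PCNA 0.97 (SE 0.13, adjusted p = 2.38e-05) and MKI67 1.04 (SE 0.26, adjusted p = 0.00411). Values were 1.06 for GINS2, 1.03 for GINS1, 1.16 for RRM2, 1.00 for MCM6, 1.28 for CCNB2, 1.09 for CCNB1 and 1.26 for TOP2A. Libraries not yet given are those of lactoferrin for TPX2, at 370, 385 and 365 CPM, for GINS1, at 106, 96.1 and 98.0 CPM, for RRM2, at 184, 215 and 197 CPM, and for TOP2A, at 329, 367 and 306 CPM. MCM6 measured 128, 124 and 112 CPM in methotrexate and 230, 217 and 244 CPM in the combination, CCNB1 193, 205 and 183 CPM in the combination, and TOP2A 371, 310 and 320 CPM in control. In each of these genes every methotrexate library was below every control and every combination library. Of all genes, 32.9% had every methotrexate library below every control, and 30.2% had every combination library above every methotrexate library. The share with both was not counted. Scaled on epithelial genes, the interaction was called for 1 replication member, RFC4 at -0.61 (SE 0.20, edgeR adjusted p = 0.0135), in a direction taken by 67.8% of all genes, and for 0 mitotic members, of which 0 had an unadjusted p under 0.05, where 0.173% of all genes were higher. The replication count on that scale was 4 without combination library 3, and 2 without control library 3 or without lactoferrin library 2, and the mitotic count was 1 without methotrexate library 1 or without lactoferrin library 2. PCNA stood at -0.02 and MKI67 at 0.07 on the epithelial scale, both without passing the test.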

How the data were processed

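RNA of 12 Caco-2 samples was sequenced as read pairs. The deposited table holds integer counts per gene, 1 column per sample, with gene length, symbol and hg19 coordinates, per the file headers. The submitters' processing notes name CASAVA, STAR and DESeq2 with build hg19, and per the labels the authors called genes over 2-fold at an adjusted p under 0.01. No source used here gives the counting program, the annotation or the strand setting.

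Counts were tested in R 4.3.3 with edgeR 4.0.16: filterByExpr, TMM, a quasi-likelihood fit with 1 mean per group over all 12 libraries, and Benjamini-Hochberg over 16733 genes in each of 6 contrasts, called under 0.05. The biological coefficient of variation was 12.9%. A second fit scaled libraries on the median ratio of 57 epithelial genes (of 59 chosen, 58 in the table). CPM are TMM-scaled unless the epithelial scale is named. SEs are the log2 change over the root of F. DESeq2 1.42.0 and limma 3.58.1 (voom) served as alternatives, with other scalings, filters, references, and each library left out. The script was tested on simulated data. Of 2 rows named RBL1 the one with more counts was used. Library totals are given in the text, and precision is set by the 3 libraries per group rather than by depth.

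GC content came from GENCODE transcripts, for 49 of 50 members, and promoters from RefSeq on GRCh38.p14, with no hg19 coordinate mixed in. Members, lists and tests were chosen with earlier results of these data known. Genes given in full are the 4 of each group with the lowest p per contrast, plus PCNA and MKI67, and from each further list up to 4, plus CDKN1A; genes called on the epithelial scale and those far apart in 1 library were added after their values were seen. No pair of libraries in a group agreed within sampling noise (chi-square per degree of freedom 7.43 to 40.2).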

Additional observations from a re-analysis of the deposited data

Results flagged for a closer look

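The interaction test called 23 replication members and 25 mitotic members with TMM scaling, so the difference between methotrexate and no methotrexate was not the same with and without lactoferrin on that scale. Scaled on epithelial genes it called 1 replication member, RFC4, at -0.61. These are flagged because effects of the same contrast differ between the libraries with and without lactoferrin. The methotrexate libraries, in which the summed adipocyte markers were 16200 to 16900 CPM, enter all of these values, and the part of that RNA in them was not tested.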

How the results depend on the processing

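Scaled on epithelial genes, the replication count for methotrexate against control went from 24 lower to 3 higher and the mitotic count from 25 to 2. For the combination against methotrexate the counts became 3 lower replication members and 3 higher mitotic members, and for the interaction 1 and 0. PCNA turned from -0.96 to 0.06 in methotrexate against control, to -0.01 against methotrexate in the combination and to -0.02 in the interaction, and GINS2 to -0.02 in the combination against methotrexate, none of them called on that scale. By the submitters' rule of over 2-fold and an adjusted p under 0.01, replication counts were 13, 7 and 12 in methotrexate against control, the combination against methotrexate and the interaction. Mitotic counts by that rule were 23, 23 and 23. Of all 16733 genes tested, 918, 903 and 714 passed it in the same directions as the members.

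Epithelial scaling on reference genes of at most 50% GC, 20 in number and chosen after seeing the data, gave replication counts of 5, 6 and 3 and mitotic counts of 0 and 0 in the first 2 of these contrasts. The junction list alone gave mitotic counts of 1 and 1, the enterocyte list alone a mitotic count of 1 in methotrexate against control and a replication count of 4 in the interaction. With each library left out in turn, TMM counts ranged from 23 to 25 and from 25 to 25 in methotrexate against control, 24 to 25 and 25 to 25 in the combination against methotrexate, and 22 to 24 and 24 to 25 in the interaction, for replication and mitotic members. Counts on the epithelial scale ranged from 3 to 5 and 0 to 5, from 2 to 5 and 1 to 9, and from 1 to 4 and 0 to 1. In the comparisons without methotrexate libraries all counts were 0 to 0. The cause of these shifts was not tested.

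Same-numbered samples did not vary together more than others did. Their 18 pairs had correlations of -0.55 to 0.29 (median -0.105), against -0.4 to 0.65 (median 0.085) in 36 pairs of different number. The deviations are taken around means of 3 libraries, so these correlations cannot decide whether the numbers pair the samples. A replicate block gave 24 and 25 called members in methotrexate against control, 24 and 25 in the combination against methotrexate and 23 and 24 in the interaction. With epithelial scaling the block left mitotic counts of 0 and 1 in the first 2 contrasts, and the replication counts at 3, 3 and 1. With 3 libraries per group the median interval of a member reaches 0.26 log2 units to either side in the pairwise comparisons with TMM scaling and 0.29 with epithelial scaling, and 0.36 and 0.41 in the interaction, so changes below about these sizes are not resolved.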
